A study of Mus musculus with 15 samples.

Results

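Neutrophils store antimicrobial proteins in granules that are built in a fixed order, primary granules in promyelocytes, secondary (specific) granules in myelocytes and tertiary granules later. The 10 genes described here are commonly used as markers of secondary granules and of the maturation steps around them, and they were chosen by symbol: Ltf, Camp, Ngp, Lcn2, Mmp8, Mmp9, Cd177, Chil3, Hp and Itgb2l. Each symbol matched 1 row among the 53379 genes of the table, and all 10 were among the 12673 genes that passed the filter on low values (10 or more normalized reads in 3 or more libraries). C/EBP transcription factors bind as dimers to related DNA sites, and C/EBPε, encoded by Cebpe, is known as the member required for secondary granule gene expression in granulocytes. C/EBPα and C/EBPβ also act in myeloid cells, which is the background to asking what became of these 10 genes when both were removed.

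The cells were fetal liver haematopoietic cells transformed by a retrovirus carrying the MLL-ENL fusion oncogene. WTFL cells carried floxed Cebpa and Cebpb alleles that were not recombined (genotype wild-type in the labels). In dKO cells both genes had been deleted with cell-permeable TAT-Cre recombinase, and the cells carried a GFP vector. In dKO-LAP* cells, dKO cells expressed GFP and the rat long C/EBPβ isoform LAP*. Clones C1 and C2 came from different mice. WTFL and dKO cells of both clones and dKO-LAP* cells of C1 were analysed, 5 groups of 3 libraries. All were grown in IMDM with 10% FCS and IL-3 (10 ng/ml). The 3 RNA samples of a line were taken from 1 clonal line at different times, so that p-values measure the spread between these samples and not between clones or mice. Each dKO line was a subclone that had survived repeated TAT-Cre treatment, and since partly deleted clones were pooled between the treatments, it need not stem from the same transformed cell as the WTFL line. Deletion, GFP vector and outgrowth of 1 subclone cannot be told apart between WTFL and dKO cells, nor clone and mouse between C1 and C2.

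The deposited values are read counts per gene divided by 1 size factor per library (normalized reads). A library held 9212237 to 13613500 reads on genes. Cebpa stood at 903 to 1437 normalized reads in the WTFL libraries of C1 and at 1653 to 2267 in those of C2, and was listed at 0 in all 6 dKO libraries. Cebpb stood at 1394 to 1559 and at 1353 to 1634 in the same WTFL libraries and also at 0 in all 6 dKO libraries. In dKO-LAP* cells Cebpb was at 2537 to 4216 and Cebpa at 0 to 0.92 normalized reads. Whether the Cebpb reads of dKO-LAP* cells came from the rat transgene was not tested. In WTFL cells of C2, replicate 1 was the lowest of the 3 libraries for 9 of the 10 genes, all but Hp, and its summed level of neutrophil maturation genes was 44658 normalized reads against 69481 and 77463 in the other 2 libraries. The dKO effects on the 10 genes in C2 are given with and without it. For the other gene lists described here, the genes called in C2 were the same without it, except that Cybb was also called lower.

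C/EBP-type and PU.1-type motifs were searched on both strands in the 250 bases before the RefSeq start of each gene. RefSeq promoter windows (GRCm38.p6) matched 8 of the 10 genes, all but Mmp9 and Hp. The motif TTGCNNAA (TTNNGCAA on the other strand) was found in 9.56% of 32851 promoter windows and in 4 of the 8, namely Lcn2, Ltf, Mmp8 and Ngp. The looser form TTNNGNAA (TTNCNNAA on the other strand), which includes every match to the first, was found in 36.8% of all windows and in 7 of the 8, all but Camp. The letters GAGGAA, the core of a PU.1 site, also searched as their reverse complement, were found in 23.3% of all windows and in 5 of the 8, namely Cd177, Itgb2l, Lcn2, Ltf and Mmp8. The whole window of Lcn2 and 161 of the 250 bases of that of Camp lie inside the annotated gene, so that the matches in Lcn2 are not upstream of it. The windows of 5 genes are printed, since these genes carry the differences between groups described next: Ltf, Ngp and Itgb2l rose most in dKO cells of C1 besides Camp, Cd177 moved in opposite directions in the clones, and Mmp8 rose in both. Bases inside the annotated gene are left out, the sequence reads 5′ to 3′ along the gene's strand, and capitals mark C/EBP-type matches of either form. A match is a description of the letters and not a binding site.
Ltf (GRCm38.p6 chr9:111019042-111019270, plus strand): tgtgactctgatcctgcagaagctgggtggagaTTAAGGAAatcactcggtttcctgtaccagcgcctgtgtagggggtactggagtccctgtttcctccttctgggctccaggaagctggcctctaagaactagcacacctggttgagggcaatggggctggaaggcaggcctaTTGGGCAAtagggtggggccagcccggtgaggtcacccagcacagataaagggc
Ngp (GRCm38.p6 chr9:110419558-110419746, plus strand): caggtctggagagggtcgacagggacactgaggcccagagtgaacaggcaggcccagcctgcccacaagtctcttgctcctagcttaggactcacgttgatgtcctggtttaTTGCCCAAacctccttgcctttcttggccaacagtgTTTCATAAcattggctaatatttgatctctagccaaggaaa
Mmp8 (GRCm38.p6 chr9:7558179-7558428, plus strand): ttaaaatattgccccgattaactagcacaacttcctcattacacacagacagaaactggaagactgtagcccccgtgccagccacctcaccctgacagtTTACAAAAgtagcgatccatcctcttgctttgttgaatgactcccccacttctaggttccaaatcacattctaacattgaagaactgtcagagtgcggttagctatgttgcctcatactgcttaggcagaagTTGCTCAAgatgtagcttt
Cd177 (GRCm38.p6 chr7:24760312-24760561, minus strand): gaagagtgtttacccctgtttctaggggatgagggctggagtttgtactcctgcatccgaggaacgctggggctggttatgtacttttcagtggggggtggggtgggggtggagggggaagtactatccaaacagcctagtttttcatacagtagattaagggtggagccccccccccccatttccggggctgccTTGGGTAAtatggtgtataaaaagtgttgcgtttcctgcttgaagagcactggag
Itgb2l (GRCm38.p6 chr16:96443620-96443864, minus strand): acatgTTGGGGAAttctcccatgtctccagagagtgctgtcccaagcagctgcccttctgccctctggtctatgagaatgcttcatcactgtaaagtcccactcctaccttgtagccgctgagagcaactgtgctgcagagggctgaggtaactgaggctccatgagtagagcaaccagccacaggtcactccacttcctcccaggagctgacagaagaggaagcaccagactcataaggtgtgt
Ltf and Ngp both hold the letters TTGGGCAA, 75 bases before the RefSeq start in Ltf and 11 in Ngp, where they fall among the bases inside the annotated gene and are not printed, while Cd177 and Itgb2l hold the looser form only.

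Deletion of Cebpa and Cebpb in C1 went with higher levels of most secondary granule genes. Of the 10, 7 rose (Ltf, Camp, Ngp, Mmp8, Mmp9, Cd177 and Itgb2l), Hp fell, and Lcn2 and Chil3 did not pass the test. Called means an adjusted p below 0.05 over all genes tested with limma on log2(normalized reads + 1) and Benjamini-Hochberg adjustment, and fold changes are on that scale. Over all 12673 genes, 17.1% were called higher and 19.9% lower in this comparison. The median log2 fold change of the 10 genes was 2.81 and that of all genes tested -0.01. Under quantile normalization 2681 genes were called higher and 2052 lower, against 2170 and 2516 on the deposited scale, and the 10 genes gave 7 and 1 under both. In C2 the picture was different, with 4 genes higher (Ltf, Mmp8, Mmp9 and Chil3) and 2 lower (Cd177 and Hp), a median log2 fold change of 0.41 against -0.03 for all genes, and 17.4% of all genes called higher and 20.1% lower. The median of the 10 in C2 was 0.07 without WTFL replicate 1, with 3 genes higher (Mmp8, Mmp9 and Chil3) and the same 2 lower, and without WTFL replicate 2 it was 0.65, with Lcn2 as the fifth gene higher. The cells were measured in bulk, so that fewer cells of a type and less RNA per cell cannot be told apart.

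**Figure D1:**
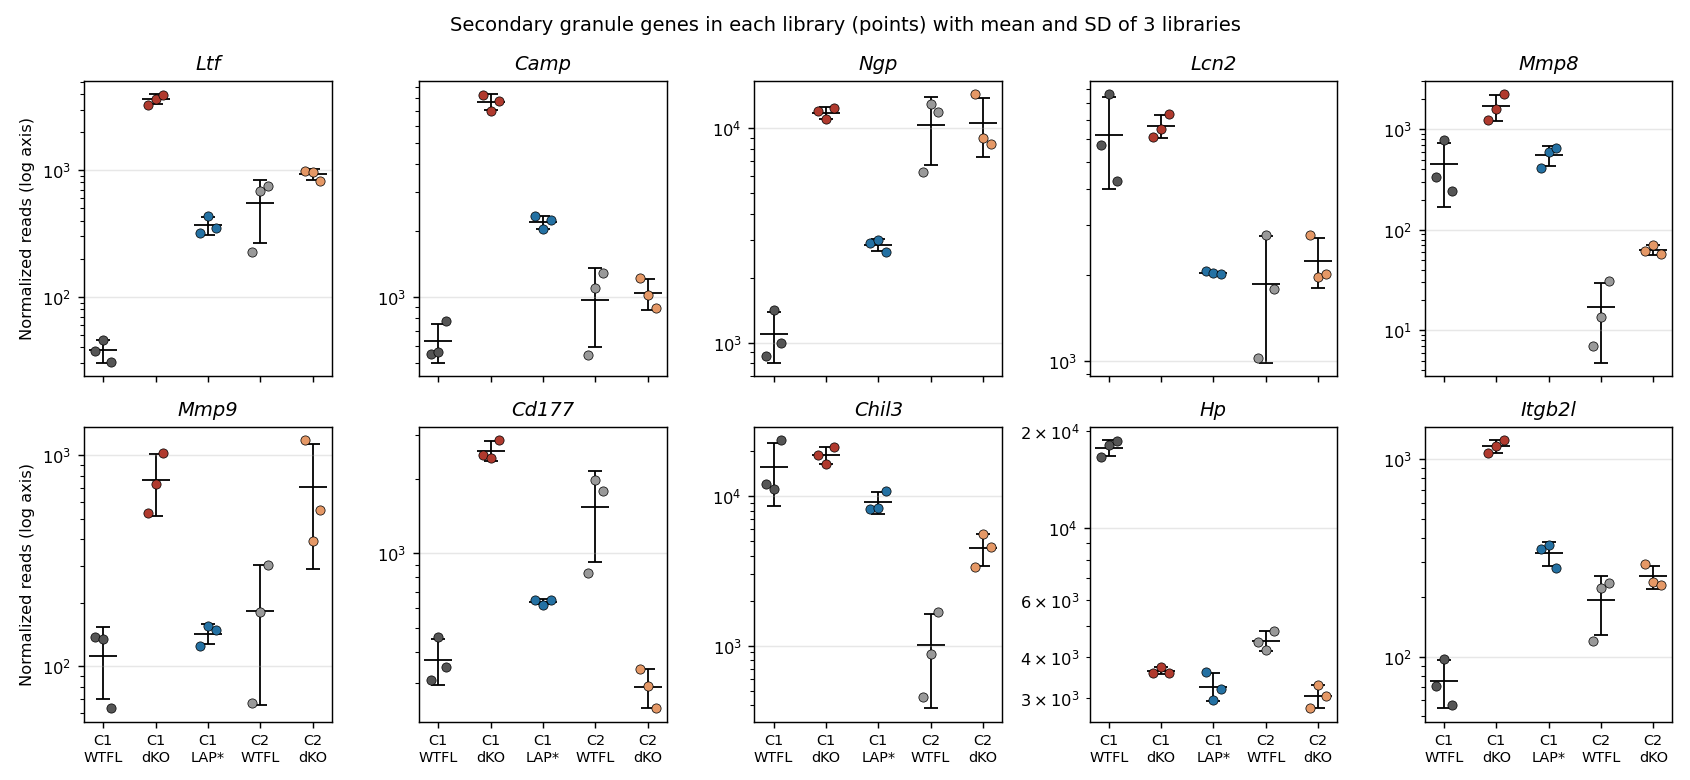
Normalized reads (log axis, a different range in each panel) of the 10 secondary granule genes in each of 15 libraries, with a horizontal bar for the mean and whiskers for the SD of 3 libraries. Ltf rose from 30.6 to 46.0 in WTFL cells to 3292 to 3941 in dKO cells of C1, with dKO-LAP* cells between them at 319 to 437.

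Lactotransferrin, encoded by Ltf (ENSMUSG00000032496, mm10 chromosome 9, 111019271 to 111042767, plus strand), is an iron-binding protein and the classic marker of secondary granules. In C1 it stood at 37.5, 46.0 and 30.6 normalized reads in WTFL cells and at 3292, 3655 and 3941 in dKO cells. In C2 it stood at 226, 683 and 744 in WTFL cells and at 992, 968 and 827 in dKO cells. The groups did not overlap in either clone, but the gap was far wider in C1, where WTFL cells were very low. The log2 fold change was 6.56 (SE 0.31, limma adjusted p = 3.3e-10) in C1, a 94.0-fold difference. In C2 it was 0.93 (SE 0.31, limma adjusted p = 0.029). The call in C2 was lost without WTFL replicate 1 (log2 fold change 0.38, limma adjusted p = 0.087), without dKO replicate 1 (0.88, adjusted p = 0.077) and without dKO replicate 2 (0.90, adjusted p = 0.072), with DESeq2 (0.77, adjusted p = 0.077) and with only the groups compared in the fit (adjusted p = 0.072). In dKO-LAP* cells Ltf was at 319, 437 and 353, below every dKO and above every WTFL library of C1.

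Lipocalin 2, encoded by Lcn2 (ENSMUSG00000026822, chromosome 2, 32384633 to 32388252, minus strand), binds bacterial siderophores and thereby withholds iron. It did not follow Ltf. In C1 it ran from 4286 to 8588 normalized reads in WTFL cells and from 6109 to 7352 in dKO cells, and in C2 from 1027 to 2771 and from 1967 to 2763. The groups overlapped in both clones, and the log2 fold change was 0.16 (95% interval -0.43 to 0.75, limma adjusted p = 0.70) in C1 and 0.37 (-0.22 to 0.96, adjusted p = 0.32) in C2. Without WTFL replicate 1 the difference in C2 was -0.001, and without WTFL replicate 2 it was called (0.71, limma adjusted p = 0.043). The 3 dKO-LAP* libraries, at 2014 to 2059, were the tightest group of this gene and lay below all WTFL and dKO libraries of C1.

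Camp and Ngp encode cathelin-related peptides of the secondary granule, the cathelicidin CRAMP and neutrophilic granule protein. Camp (ENSMUSG00000038357, 109847379 to 109849617, minus strand) and Ngp (ENSMUSG00000032484, 110419747 to 110423012, plus strand) lie with Ltf on the same part of chromosome 9. In C1 Camp stood at 550, 560 and 775 normalized reads in WTFL cells and at 8281, 7001 and 7729 in dKO cells, a log2 fold change of 3.62 (SE 0.23, limma adjusted p = 7.7e-09). In C2 Camp stood at 543, 1094 and 1278 in WTFL cells and at 1221, 1019 and 885 in dKO cells, and the groups overlapped (log2 fold change 0.18, 95% interval -0.31 to 0.67, limma adjusted p = 0.58). The dKO libraries of Camp in C2 all lay within the range of its WTFL libraries. Ngp in C1 stood at 868, 1421 and 993 in WTFL cells and at 12052, 11007 and 12438 in dKO cells, a log2 fold change of 3.46 (SE 0.24, limma adjusted p = 2.5e-08). Ngp in C2 stood at 6217, 12937 and 11839 in WTFL cells and at 14368, 8992 and 8467 in dKO cells, with overlapping groups (0.07, 95% interval -0.45 to 0.59, limma adjusted p = 0.86). The WTFL cells of C2 held Ngp at 9.19 times the level of the WTFL cells of C1 (log2 fold change 3.20, SE 0.24, limma adjusted p = 3.9e-08), while Camp was 1.47 times as high and was not called (adjusted p = 0.068). Without WTFL replicate 1 of C2 that difference of Camp was called (0.93, limma adjusted p = 0.0002), as it was without WTFL replicate 3 of C1 (0.72, adjusted p = 0.033), under quantile normalization (adjusted p = 0.042), with edgeR (0.034) and with DESeq2 (0.011). Without WTFL replicate 1 of C2 the dKO differences of Camp and Ngp in C2 were -0.20 and -0.26 and were not called either (limma adjusted p = 0.36 and 0.35).

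The collagenase Mmp8 and the gelatinase Mmp9 are matrix metalloproteinases, the first stored in secondary and the second mainly in tertiary granules. Mmp8 (ENSMUSG00000005800, chromosome 9, 7558456 to 7568485, plus strand) stood at 337, 775 and 242 normalized reads in WTFL cells of C1 and at 1249, 1601 and 2217 in dKO cells. In C2 it was near the lower end of the scale, at 7.0, 13.6 and 31.2 in WTFL cells and at 61.7, 71.0 and 56.8 in dKO cells. The levels of the clones were far apart. The log2 fold change was 2.04 (SE 0.43, limma adjusted p = 0.0015) in each clone, and 1.56 (adjusted p = 0.009) in C2 without WTFL replicate 1. Mmp9 (ENSMUSG00000017737, chromosome 2, 164940780 to 164955850, plus strand) ran from 63.2 to 138 in WTFL cells and from 531 to 1025 in dKO cells of C1, and from 66.7 to 301 and from 392 to 1182 in C2. Its log2 fold change was 2.79 (SE 0.47, limma adjusted p = 0.00023) in C1 and 2.03 (SE 0.47, adjusted p = 0.0031) in C2, where it was 1.43 (adjusted p = 0.017) without WTFL replicate 1. The 2 metalloproteinase genes were thus higher in every dKO library than in any WTFL library of the same clone. The difference between the clones' effects was 0.00 (95% interval -1.30 to 1.30) for Mmp8 and -0.76 (-2.19 to 0.67) for Mmp9, and -0.48 and -1.36 without WTFL replicate 1 of C2 (limma adjusted p = 0.58 and 0.09).

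Cd177 and Itgb2l encode surface proteins, and Cd177 protein is also stored in the membrane of secondary granules. Cd177 (ENSMUSG00000052212, chromosome 7, 24743983 to 24760311, minus strand) was at 308, 459 and 346 normalized reads in WTFL cells and at 2507, 2419 and 2874 in dKO cells of C1. In C2 it was at 836, 1984 and 1793 in WTFL cells and at 340.0, 290 and 236 in dKO cells. Cd177 rose in C1 and fell in C2 without overlap in either: the log2 fold change was 2.82 (SE 0.24, limma adjusted p = 2.2e-07) in C1 and -2.33 (SE 0.24, adjusted p = 2.1e-06) in C2. Without WTFL replicate 1 of C2, the lowest of its group, the decrease was larger (-2.72, limma adjusted p = 1.2e-08). Itgb2l (ENSMUSG00000000157, chromosome 16, 96422288 to 96443619, minus strand), an integrin beta subunit related to Itgb2, ran from 57.1 to 97.4 in WTFL cells and from 1071 to 1249 in dKO cells of C1 (log2 fold change 3.97, SE 0.23, limma adjusted p = 2.3e-09). In C2 it ran from 120 to 236 and from 232 to 293, and the groups overlapped (0.45, 95% interval -0.03 to 0.94, limma adjusted p = 0.13, and 0.14 with adjusted p = 0.60 without WTFL replicate 1). The paralog Itgb2, the common beta subunit of leukocyte integrins, had a log2 fold change of -0.22 in C1 that was not called. The exons of Itgb2l, as of the other 9 genes, overlap no other annotated gene.

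Chil3 and Hp are also made by cells other than neutrophils. Chil3 (ENSMUSG00000040809, chromosome 3, 106147554 to 106167564, minus strand) encodes Ym1, a chitinase-like protein of neutrophil precursors and macrophages. In C1 it was abundant in both groups, at 12039, 11178 and 23723 normalized reads in WTFL cells and at 18826, 16311 and 21142 in dKO cells, and the groups overlapped (log2 fold change 0.34, 95% interval -0.43 to 1.11, limma adjusted p = 0.50). In C2 it was at 450.1, 884 and 1681 in WTFL cells and at 3367, 5580 and 4555 in dKO cells, a log2 fold change of 2.33 (SE 0.36, limma adjusted p = 0.00011) and of 1.85 without WTFL replicate 1 (adjusted p = 0.00035). Chil3 was the gene among the 10 that rose in C2 and was not called in C1. Its near-identical paralog Chil4 held 0.0 to 4.5 normalized reads in any library.

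Haptoglobin, encoded by Hp (ENSMUSG00000031722, chromosome 8, 109575128 to 109579172, minus strand), binds free haemoglobin and is made by liver and by maturing neutrophils. It was the gene of the 10 that fell in both clones. In C1 it was at 16539, 18012 and 18502 normalized reads in WTFL cells and at 3582, 3739 and 3573 in dKO cells, a 4.86-fold decrease (log2 fold change -2.28, SE 0.08, limma adjusted p = 1.9e-11). In C2 it was at 4447, 4220 and 4826 in WTFL cells and at 2783, 3289 and 3036 in dKO cells (-0.57, SE 0.08, limma adjusted p = 6.9e-05, and -0.58 without WTFL replicate 1). The replicates of Hp lay close together. Between the clones its dKO levels differed 1.20-fold and its WTFL levels 3.93-fold, both higher in C1.

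**Figure D2:**
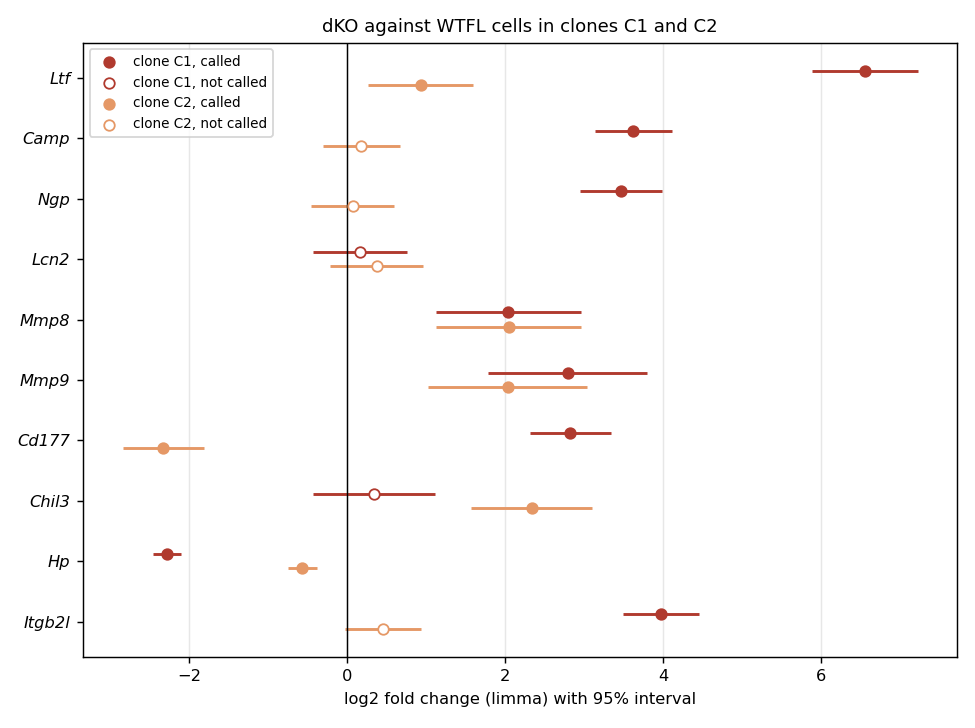
Log2 fold change of dKO against WTFL cells (x axis, limma) with its 95% interval (line) for the 10 genes in C1 (red) and C2 (orange), with filled points for called and open points for uncalled genes. Cd177 lies on opposite sides of 0 (2.82 and -2.33), and the Mmp8 points coincide at 2.04.

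The dKO effect itself was compared between the clones as an interaction contrast. It was lower in C2 than in C1 for 5 of the 10 genes (Ltf, Camp, Ngp, Cd177 and Itgb2l) and higher for Chil3 and Hp, whereas Lcn2, Mmp8 and Mmp9 were not called. Over all genes tested, 15.1% were called higher and 14.3% lower in this contrast. The largest of these differences was that of Ltf, at -5.63 (SE 0.44, limma adjusted p = 2.6e-07). Without WTFL replicate 1 of C2 the counts were also 5 lower and 2 higher. The starting levels also differed. Between the WTFL cells of the clones, 4 of the 10 genes were higher in C2 (Ltf, Ngp, Cd177 and Itgb2l) and 4 lower (Lcn2, Mmp8, Chil3 and Hp), where 19.7% of all genes were called higher and 21.3% lower, and without WTFL replicate 1 of C2 6 were higher and 4 lower. Ltf was 12.7-fold higher and Mmp8 25.7-fold lower in WTFL cells of C2 (limma adjusted p = 1.3e-07 and 3.1e-07). Mmp9 was called higher as well without WTFL replicate 1 of C2 (1.14, limma adjusted p = 0.046). Between the dKO cells, 8 of the 10 genes were lower in C2 and none higher (0 also at an unadjusted p below 0.05, with edgeR and with DESeq2), against 24.9% and 22.8% of all genes, and Ngp (-0.20, 95% interval -0.72 to 0.32) and Mmp9 (-0.22, -1.22 to 0.79) were not called. The call of Hp there (-0.26, limma adjusted p = 0.018) was lost without dKO replicate 2 of C1 (adjusted p = 0.058) or dKO replicate 1 of C2 (adjusted p = 0.089). These contrasts share their libraries with the dKO comparisons.

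The mean was highest in dKO cells of C1 for 9 of the 10 genes, all but Hp, which was highest in WTFL cells of C1. For 4 of the 9 the group with the next highest mean was not called different, dKO cells of C2 for Ngp and Mmp9 and WTFL cells of C1 for Lcn2 and Chil3. For Cd177 the next group, WTFL cells of C2 (836 to 1984), was not compared with dKO cells of C1 (2419 to 2874) in a test, and the libraries did not overlap. By mean, Hp was lowest in dKO cells of C2 (2783 to 3289 normalized reads) and Mmp8 in WTFL cells of C2. For Hp the next group, dKO-LAP* cells of C1 (2960 to 3599), overlapped with dKO cells of C2 and was not compared with them in a test. Per kilobase of exon, the most abundant of the 10 in WTFL cells of C1 were Hp (11012 normalized reads per kilobase, SD 636) and Chil3 (9587, SD 4294). In dKO cells of C1 they were Chil3 (11495, SD 1480), Camp (10119, SD 847) and Ngp (9683, SD 606). Ngp led in both groups of C2, with 8454 (SD 2950) in WTFL and 8682 (SD 2673) in dKO cells. Over all 10 genes the summed level ran from 36597 to 49020 normalized reads in WTFL cells and from 54154 to 63540 in dKO cells of C1, and from 13938 to 24990 and from 20857 to 27370 in C2.

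Expression of LAP* in dKO cells of C1 went with lower levels of the secondary granule genes. Of the 10, 8 fell against dKO cells (Ltf, Camp, Ngp, Lcn2, Mmp8, Mmp9, Cd177 and Itgb2l), none rose (0 also at an unadjusted p below 0.05, with edgeR and with DESeq2), and Chil3 and Hp did not pass the test, while 3.03% of all genes tested were called lower and 1.43% higher. The median log2 fold change of the 10 was -1.80 against 0.00 for all genes. Ltf fell 9.85-fold, the largest change of the 10 (log2 fold change -3.30, SE 0.31, limma adjusted p = 1.8e-05). Mmp9 stood at 125, 155 and 149 normalized reads (-2.36, SE 0.47, limma adjusted p = 0.0093) and Ngp at 2906, 3024 and 2644 (-2.05, SE 0.24, adjusted p = 0.00017). Cd177 (646, 619 and 647), Camp (2323, 2029 and 2222) and Itgb2l (353, 368 and 283) fell 4.06-fold, 3.5-fold and 3.49-fold, with limma adjusted p-values of 0.00017, 0.00031 and 0.00028. Lcn2, which was not called between dKO and WTFL cells, fell 3.26-fold (-1.71, SE 0.28, limma adjusted p = 0.0022). Mmp8 was at 413, 590.0 and 654, and its call was at the threshold (-1.60, SE 0.43, limma adjusted p = 0.049). Leaving out any 1 of the 6 libraries ended it, with adjusted p-values from 0.069 (without dKO replicate 1) to 0.16 (without dKO replicate 3), as did a pseudocount of 0.1 (0.069) and the fit without the filter (0.060). Chil3 was at 8163, 8288 and 10879, below all dKO libraries (-1.05, SE 0.36, limma adjusted p = 0.13), and was called with only the groups compared in the fit (adjusted p = 0.0011). Hp was at 3599, 2960 and 3184 and overlapped with dKO cells (-0.17, 95% interval -0.34 to 0.01).

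Set against WTFL cells of C1, the level in dKO-LAP* cells was between those of WTFL and dKO cells for some genes, beyond WTFL for others and near that of dKO cells for Hp. Of the 10, 5 remained higher than in WTFL cells (Ltf, Camp, Ngp, Cd177 and Itgb2l) and 2 were lower (Lcn2 and Hp), where 14.2% of all genes were called higher and 18.3% lower (2521 and 1910 genes under quantile normalization against 1796 and 2322). Ltf was 9.54-fold and Itgb2l 4.48-fold above WTFL cells (limma adjusted p = 8.3e-07 and 2.0e-06). Cd177 was 1.74-fold above (0.80, SE 0.24, limma adjusted p = 0.019), a call lost without WTFL replicate 1 (0.68, adjusted p = 0.081). Mmp8 (0.44, 95% interval -0.48 to 1.36) and Mmp9 (0.43, -0.58 to 1.44) were not distinguished from WTFL cells. Lcn2 was 2.92-fold below WTFL cells (limma adjusted p = 0.00042) and Hp 5.46-fold below (adjusted p = 8.6e-12), so that the low Hp level of dKO cells was also that of dKO-LAP* cells. Both contrasts of dKO-LAP* cells use the same 3 libraries.

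**Figure D3:**
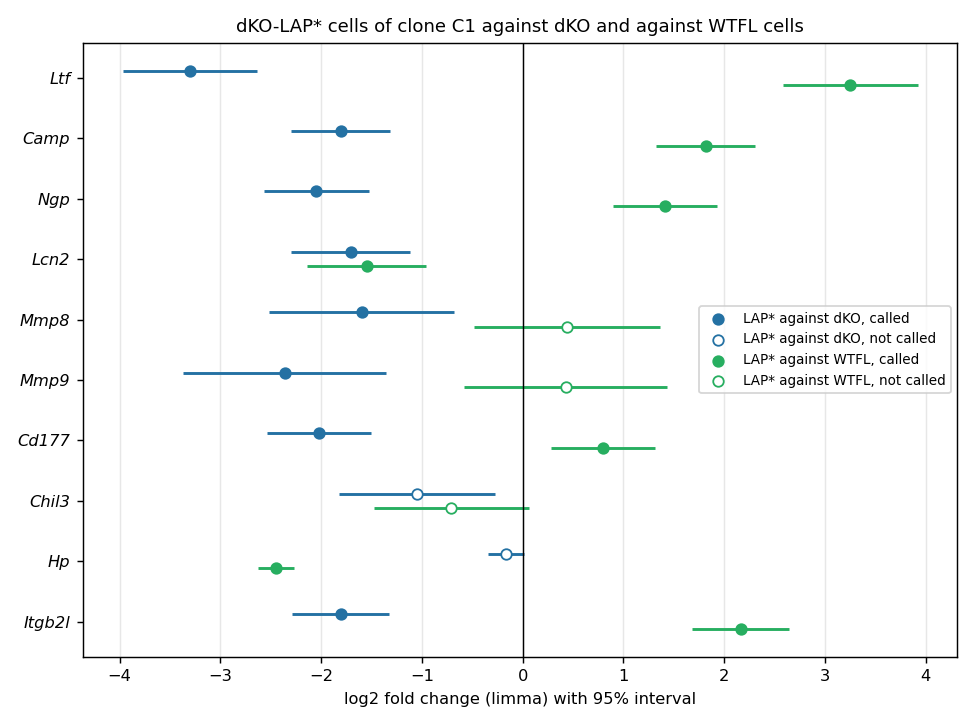
Log2 fold change (x axis, limma) with its 95% interval of dKO-LAP* cells against dKO cells (blue) and against WTFL cells (green) of C1 for the 10 genes, with filled points for called and open points for uncalled genes. All blue points lie below 0, from -3.30 for Ltf to -0.17 for Hp, while the green points run from -2.45 for Hp to 3.25 for Ltf.

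Regulators of granulocyte genes were read beside the 10. Cebpe stood at 380.0, 472 and 371 normalized reads in WTFL cells and at 2272, 2022 and 2027 in dKO cells of C1, and at 497, 517 and 501 and at 2222, 2120 and 2155 in C2. It rose in both clones without overlap, with a log2 fold change of 2.37 (SE 0.10, limma adjusted p = 8.0e-11) in C1 and 2.10 (SE 0.10, adjusted p = 3.6e-10) in C2. The difference of these effects was -0.28 (95% interval -0.58 to 0.03, limma adjusted p = 0.17), and was called under quantile normalization (-0.45, adjusted p = 0.026) and without WTFL replicate 2 of C1 (-0.39, adjusted p = 0.037). The dKO cells of the clones differed by 0.04 (95% interval -0.17 to 0.26) in Cebpe. In dKO-LAP* cells Cebpe was at 2106, 1653 and 1669 (-0.23 against dKO cells, 95% interval -0.44 to -0.01, limma adjusted p = 0.25). Of the 10 regulators, 4 were called higher in dKO cells of C1 (Cebpd, Cebpe, Gfi1 and Cux1) and 5 in C2 (Cebpe, Cebpg, Runx1, Klf5 and Cux1), besides the deleted genes Cebpa and Cebpb, which were lower. Over all genes tested, 17.1% were called higher and 19.9% lower in C1, and 17.4% and 20.1% in C2. Without dKO replicate 2 of the clone, Cebpg was also called higher in C1 and Gfi1 lower in C2. In C1 the log2 fold change was 0.72 for Cebpd, 0.96 for Cux1, whose product has been described as a repressor of Ltf, and 0.53 for Gfi1, a repressor needed for neutrophil differentiation. In C2 it was 0.98 for Cebpg, 0.88 for Runx1, 1.33 for Klf5 and 0.31 for Cux1. Spi1, which encodes PU.1, had values of -0.04 and 0.14 and was not called. Against dKO cells, Cebpb was the regulator called in dKO-LAP* cells with limma.

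**Figure D4:**
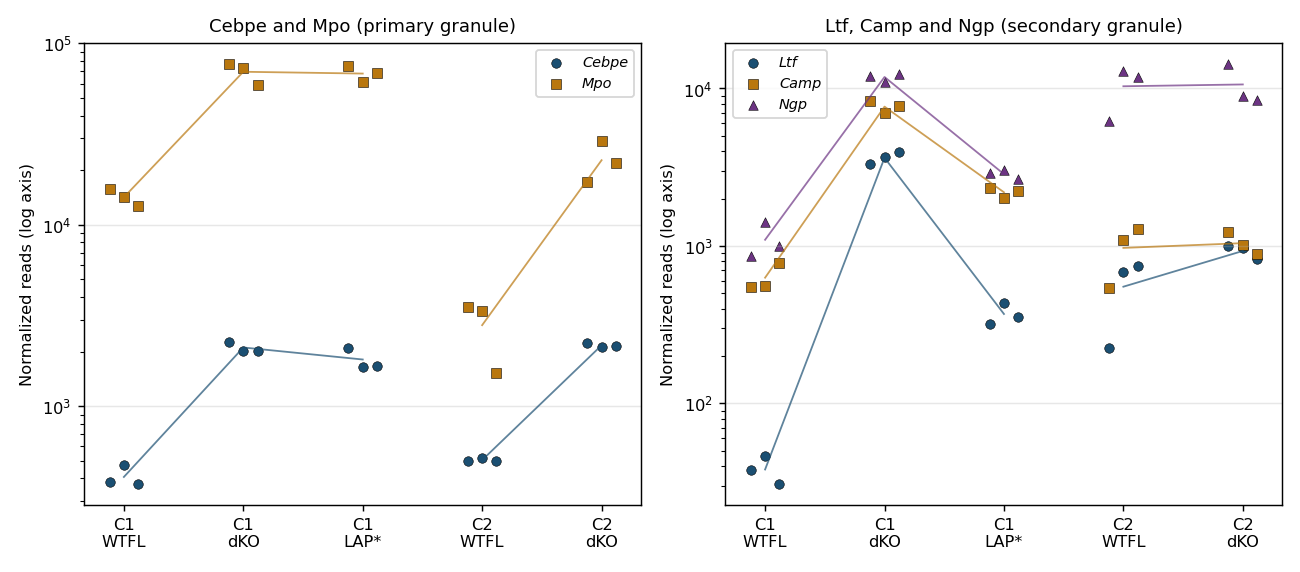
Normalized reads (log axes) in each library of Cebpe and the primary granule gene Mpo (left) and of the secondary granule genes Ltf, Camp and Ngp (right), with lines joining group means within a clone. Cebpe (1653 to 2106) and Mpo in dKO-LAP* cells overlapped with dKO cells, whereas Ltf, Camp and Ngp were lower in all 3 dKO-LAP* libraries than in any dKO library of C1.

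Genes of other granules and of neutrophil maturation were given by lists. Over all genes tested, 17.1% were called higher and 19.9% lower in dKO cells of C1, and 17.4% and 20.1% in C2. For dKO-LAP* against dKO cells these shares were 1.43% and 3.03%. Of 14 other secondary and tertiary granule genes 13 were tested (Ptx3 was listed at 0 in all libraries), and 7 were higher and 3 lower in dKO cells of C1, with the largest changes in the protease gene Mmp25, Pglyrp1, the ficolin gene Fcnb and Cybb. Mmp25 stood at 2.0 to 3.6 normalized reads in WTFL cells and at 129 to 149 in dKO cells. The log2 fold change was 3.47 for Pglyrp1, which encodes a peptidoglycan-binding protein, 3.31 for Fcnb and -2.61 for Cybb, a subunit of the NADPH oxidase. With 1 library left out, 5 to 7 were higher and 2 or 3 lower in C1, the call of Chi3l1 being lost in 5 of the 6 fits, that of Lyz2 in 4 and that of Itgam without WTFL replicate 3. In C2, 3 were higher (Pglyrp1, Olfm4 and Fcnb) and Adam8 was lower, a call lost without WTFL replicate 2 or 3, without dKO replicate 2 or with DESeq2. These counts of 3 and 1 of 13 lay near or below the shares over all genes. Against dKO cells, 4 of the 13 were lower in dKO-LAP* cells (Pglyrp1, Lyz2, Cybb and Chi3l1), the call of Lyz2 being lost without dKO replicate 3 or dKO-LAP* replicate 2, and none was higher. The number lower was 7 with a pseudocount of 5 and 9 with only the groups compared in the fit. Of 9 matched neutrophil maturation genes, 5 were higher in dKO cells of C1 (Ly6g, S100a8, S100a9, Cxcr2 and Retnlg) and the formyl peptide receptor genes Fpr1 and Fpr2 were lower. In C2 none was higher, 0 also at an unadjusted p below 0.05 and with edgeR and DESeq2, and 4 were lower in dKO than in WTFL cells (Ly6g, Csf3r, Retnlg and Wfdc21). Set against dKO cells of C1, 9 of 9 were lower in dKO-LAP* cells. The call of S100a8 was lost in 4 of the 6 fits with 1 library left out, that of Cxcr2 without dKO replicate 1, which left 7, and the call of Fpr1 was lost with a pseudocount of 0.1 (adjusted p = 0.081). The median log2 fold change of the 9 was 1.45, -0.39 and -1.71 in the 3 comparisons. Retnlg was listed at 0 in all WTFL and dKO-LAP* libraries of C1. With genes of at most 3 reads in every library of a group set to the bound that 3 reads allow, and to 0 where that left no fold, the medians were 1.45, -0.20 and -1.71. With 1 library left out the fitted median in C2 ran from -0.76 (without WTFL replicate 2) to -0.13 (without WTFL replicate 3), and was -0.65 without WTFL replicate 1, -0.71 without dKO replicate 3 and -0.21 without dKO replicate 2, with the same 4 genes lower in each fit. Ly6g, a defining marker of mature neutrophils, did not exceed 90.7 normalized reads in any library.

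Of 8 primary granule genes, 5 were higher (Mpo, Elane, Prtn3, Prss57 and Bpi) and Ctsc was lower in dKO cells of C1, while 4 were higher (Mpo, Elane, Prtn3 and Prss57) and Ctsg and Ms4a3 were lower in C2. Over all genes tested, 17.1% were called higher and 19.9% lower in C1, and 17.4% and 20.1% in C2. For dKO-LAP* against dKO cells these shares were 1.43% and 3.03%. Under the alternatives 3 to 4 of the 8 were higher in C2, and with 1 library left out 4 to 5. Bpi was at 1.3 to 2.7 normalized reads in WTFL cells of C1, and its call was lost with a pseudocount of 0.1 (limma adjusted p = 0.078). The call of Prtn3 in C1 was lost without WTFL replicate 1 or 2 or dKO replicate 2. The log2 fold change of Ctsc, which encodes the cathepsin that activates granule serine proteases, was -2.01 in C1. The values in C2 were -3.47 for Ms4a3, a marker of granulocyte-monocyte progenitors, and -1.41 for the cathepsin G gene Ctsg. Mpo, the myeloperoxidase gene, had a log2 fold change of 2.29 (SE 0.25) in C1 and 3.08 (SE 0.25) in C2. Against dKO cells none of the 8 was called in dKO-LAP* cells with limma, edgeR or DESeq2 (1 at an unadjusted p below 0.05), with a median log2 fold change of -0.04 (-0.12 to 0.05 with 1 library left out), where 8 of the 10 secondary granule genes were lower. The difference between these lists was not tested.

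**Figure D5:**
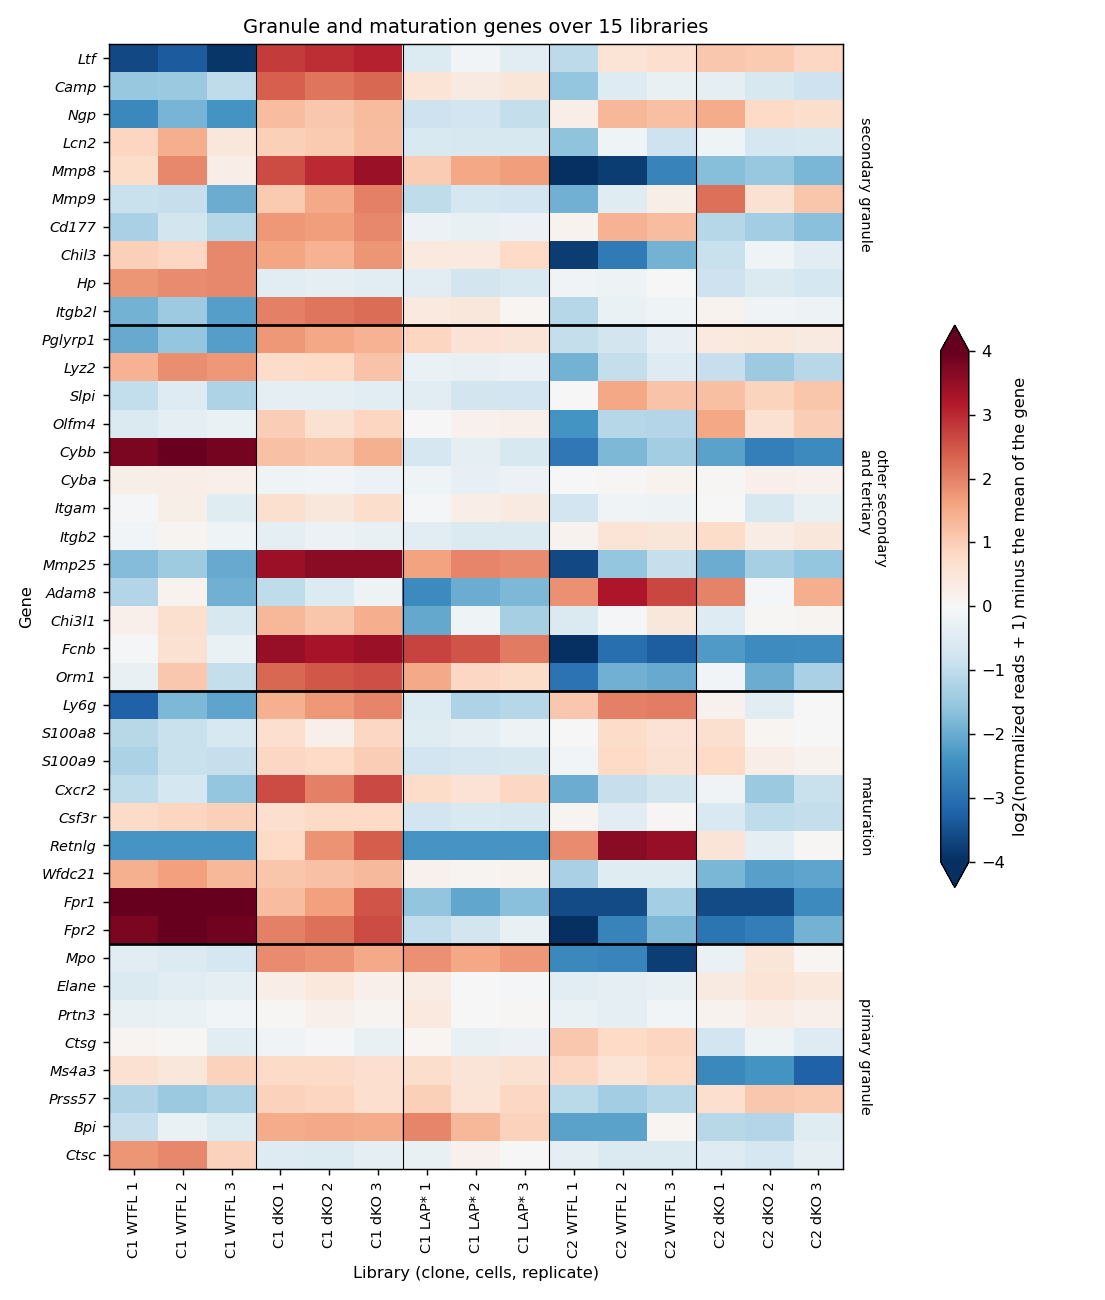
Colour scale of log2(normalized reads + 1) minus the gene's mean over 15 libraries, for genes that passed the filter (rows: secondary granule, other secondary and tertiary granule, maturation and primary granule genes, from top to bottom) in each library (columns). Ltf, Camp, Ngp, Cd177 and Itgb2l are red in dKO cells of C1 and pale in dKO-LAP* cells, whereas Mpo stays red in both. Ngp stood at 6217 to 14368 normalized reads in C2, against 11007 to 12438 in dKO cells of C1.

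Markers of other cell types also differed between these groups. Over all genes tested, 17.1% were called higher and 19.9% lower in dKO cells of C1, and 17.4% and 20.1% in C2. Against dKO cells, 4 of 5 eosinophil markers and 1 of 5 mast cell and basophil markers (Cpa3) were lower in dKO-LAP* cells, where 3.03% of all genes were. None of 7 monocyte and macrophage and none of 4 progenitor markers was called there with limma. Of 6 eosinophil markers, 5 were tested and all 5 were higher in dKO cells of both clones. Il5ra passed the filter only through the 3 dKO libraries of C1 (44.1 to 68 normalized reads), and without any 1 of them it was not tested. In C2 it stood at 0 in WTFL and at 2.9 to 4.3 normalized reads in dKO cells. The summed level of the 6 ran from 98.8 to 123 normalized reads in WTFL, from 8215 to 15148 in dKO and from 1006 to 2004 in dKO-LAP* cells of C1, and from 13.6 to 21.1 and from 272 to 379 in C2. The eosinophil granule genes Epx and Prg2 were listed at 0 in the WTFL libraries of C1 and at 1609 to 3554 and 5480 to 10159 in its dKO libraries, and Ccr3 was at 0.0 to 2.1 throughout. Of 5 tested mast cell and basophil markers 5 were higher in dKO cells of C1, and in C2 3 were higher and Ms4a2, a chain of the high-affinity IgE receptor, was lower (47.6 to 69.7 normalized reads in WTFL and 5.2 to 12.6 in dKO cells). The call of Ms4a2 in C1 was lost without WTFL replicate 3 or dKO replicate 1 or 3. The sum ran from 104 to 144 in WTFL, from 2893 to 3301 in dKO and from 1094 to 1310 in dKO-LAP* cells of C1. In C2 that sum ran from 180 to 192 in WTFL and from 975 to 1379 in dKO cells. Of 7 tested monocyte and macrophage markers 6 were lower in dKO cells of C1, or 5 in the 4 of 6 fits with 1 library left out that lost Adgre1, and in C2 3 were lower and Adgre1, the gene of the macrophage marker F4/80, was higher (200.2 to 418 normalized reads in WTFL and 988 to 1676 in dKO cells), with sums from 29740 to 41936 in WTFL, from 19904 to 22985 in dKO and from 20267 to 22926 in dKO-LAP* cells of C1, and from 17443 to 19068 and from 13417 to 15676 in C2. The progenitor markers Kit, Cd34 and Flt3 were higher in dKO cells of both clones, with a sum over the 4 markers from 981 to 1200.3 in WTFL, from 4685 to 5284 in dKO and from 4647 to 4883 in dKO-LAP* cells of C1, and from 286 to 339 and from 7526 to 8598 in C2. The fourth, Ly6a, which encodes Sca-1, was at 165, 133 and 9.2 normalized reads in WTFL and at 22.6, 40.9 and 71.5 in dKO cells of C1, and was not called in either clone but was called lower in C1 without WTFL replicate 3. Fcer1a, a marker of basophils and mast cells, did not exceed 1.05 normalized reads. The part of these cell types in the levels of the 10 genes was not tested.

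Within the 15 libraries the 10 genes did not follow 1 pattern, given here as Pearson correlations of log2 values that share 5 group means. Itgb2l went with Camp (0.94) and Ltf (0.92), Ngp with Ltf (0.90), and Mmp8 with Chil3 (0.92), whereas Hp went against Ltf (-0.82) and Ngp with Mmp8 was at -0.26. Outside the 10, the most similar gene was Ccno for Ltf (0.96), Inpp5a for Camp (0.97), Dgka for Ngp (0.98), Ctse for Lcn2 (0.93), Rnf144a for Mmp8 (0.98), Cyp4f13 for Mmp9 (0.94), Mcf2l for Cd177 (0.94), Clec4a2 for Chil3 (0.97), Cp for Hp (0.98) and Gm49654 for Itgb2l (0.96). Pglyrp1, itself a granule gene, was the third most similar gene to Itgb2l (0.95).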

How the data were processed

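Per the labels, the authors used STAR (2.5.3a) for alignment to mm10, HTSeq (0.10.0) for counting and DESeq2 (1.26.0) for normalization. The gene annotation and the strand setting of the counting are not given in the sources used here. The signal deposited by the authors is a read count per gene over 1 size factor per library (0.747 to 1.13). Whole reads were recovered from the common step of each column within 0.1 read for at least 99.99% of values, although in WTFL replicate 1 of C2 the step lies too near 1 for low values to check it. Rows of HTSeq that name no gene held 22.4% to 26.2% of reads and were left out. A library held 9212237 to 13613500 reads on genes (median 11885279). 3 columns matched no sample and were not used.

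Groups came from the labels. limma (3.58.1, R 4.3.3, trend) was fitted to log2(normalized reads + 1) over 5 groups of 3 libraries, with 1 mean per group, for the 12673 genes that reached 10 normalized reads in 3 or more libraries, and p-values were adjusted by Benjamini-Hochberg over all of them. Alternatives were pseudocounts of 0.1 and 5, no filter, quantile normalization, only the groups compared, a replicate block, edgeR (4.0.16) and DESeq2 (1.42.0) on recovered reads, and leaving out each library. Scripts were tested on simulated data. Positions came from GENCODE on mm10 and promoters from RefSeq. All members were named, and each other list was given by counts, with the names of some of its called genes, values of at most 4 called genes with the largest changes in a comparison, and values of the regulators. Ms4a2, Adgre1, Ly6a, Epx, Prg2, Il5ra, Ccr3 and Fcer1a were given values after these were seen. 1 listed marker is not reported here. Members and lists were chosen with earlier results of these data known.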

Additional observations from a re-analysis of the deposited data

Results flagged for a closer look

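The dKO effect (log2 fold change of dKO against WTFL cells) differed between the clones by an interaction contrast in limma for 7 of the 10 genes, each value being the effect in C2 minus that in C1. It was lower in C2 for Ltf (-5.627, SE 0.44, adjusted p = 2.6e-07), Cd177 (-5.151, SE 0.34, adjusted p = 4.2e-08), Itgb2l (-3.513, SE 0.32, adjusted p = 1.1e-06), Camp (-3.444, SE 0.33, adjusted p = 1.7e-06) and Ngp (-3.397, SE 0.35, adjusted p = 3.5e-06). It was higher in C2 for Chil3 (1.99, SE 0.51, adjusted p = 0.0081) and Hp (1.714, SE 0.12, adjusted p = 6.7e-08). For Cd177 the effect had opposite signs in the clones. In this contrast 15.1% of all genes tested were called higher and 14.3% lower. No outlier test was run on groups of 3 libraries.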

How the results depend on the processing

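The counts of secondary granule genes called stayed within 1 gene of those given in the report under the 8 alternatives and, with 1 library left out, within 1 gene too, except that 6 rather than 4 were higher in WTFL cells of C2 without its replicate 1. Signs turned for differences that were not called: Ngp in C2 under quantile normalization (-0.039), the difference of the Mmp8 effects with a pseudocount of 5 (-0.267), with edgeR (-0.052) and with DESeq2 (-0.034), and Cebpe between dKO cells under quantile normalization (-0.062). With 1 library left out, the log2 fold change ran from -0.077 to 0.425 for Lcn2 in C1, from -0.195 to 0.422 for Camp, from -0.264 to 0.264 for Ngp and from -0.001 to 0.714 for Lcn2 in C2, from -0.161 to 0.555 for Lcn2 and from -0.480 to 0.526 for Mmp8 in the difference of the effects, and from -0.665 to 0.130 for Mmp9 between dKO cells. The cause was not tested. Over all genes, the calls of dKO-LAP* against dKO cells were 181 higher and 384 lower and were lowest at 73 higher (without dKO-LAP* replicate 2) and 187 lower (without dKO replicate 2), and 1 or both counts moved over 1.5 times without dKO replicate 1, 2 or 3 or dKO-LAP* replicate 2 or 3, each a fit with fewer libraries. The replicate numbers did not pair the libraries (correlations of same-numbered libraries from -0.319 to 0.297, median 0.016, 30 pairs), and with a replicate block the counts of the 10 genes were 7 higher and 1 lower in C1 and 4 and 2 in C2, and the counts over all genes were 2108 and 2449 in C1. Among the other lists, Bpi and Csf1r without WTFL replicate 3 of C2 and Orm1 without dKO replicate 2 of C2 were also called higher in dKO cells of C2. Each group held 3 bulk libraries, and a gene with at most 3 reads in every library of a group gives only a bound.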
